A study of Mus musculus with 2 samples.

Results

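The genes described here are 4 inhibitors of metalloproteinases, Timp1, Timp2, Timp3 and Timp4, and 6 secreted proteases with thrombospondin repeats, Adamts1, Adamts2, Adamts4, Adamts5, Adamts9 and Adamts12. They were taken as a listed set of 10 of the 32285 genes in the deposited matrices. Each was followed through cell classes named from marker genes, in injured and in uninjured tissue.

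The tissue was soft tissue behind the mouse tibia, between the origin and the insertion of the Achilles tendon. The injured library came from the limb with burn/tenotomy, collected on day 7 after the tenotomy, and the uninjured library came from the contralateral limb, also labelled burn/tenotomy. A burn with a cut tendon is a mouse model of bone that forms outside the skeleton. Both libraries carried the alleles Hoxa11 wt/CreERT2 and R26 wt/LSL-rtTA together with TetO-Vegfd, a combination that lets Vegfd, a growth factor for lymphatic vessels, be made under tetracycline control in cells where the promoter of Hoxa11, a positional gene of the limb, drove the inducible recombinase CreERT2. The labels name no agent that induced the recombinase or the transgene. Since both carried it, the comparison is of injured against uninjured tissue of transgenic mice, the uninjured limb was not tissue of untreated animals, and libraries of another genotype were not analysed here. The design text gives male and female mice of 8 to 12 weeks and 5 mice per group, while the number of animals behind each library is not stated. There is 1 library per group, so no difference was tested and no p-value is given. Values carry exact 95% intervals for counting error, which leave out the variation between mice.

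TIMPs bind the active site of matrix metalloproteinases and switch them off, each with its own range of targets. TIMP-1 is a secreted inhibitor that inflammatory cytokines induce, TIMP-2 also takes part in activating the pro-form of MMP-2 with MMP-14, TIMP-3 stays bound to the matrix and also inhibits ADAM-17 and the aggrecan-cleaving ADAMTS proteases, and TIMP-4 has a narrower distribution. ADAMTS1, 4, 5 and 9 cleave the large proteoglycans aggrecan and versican, ADAMTS2 removes the amino-terminal propeptide of fibrillar procollagens, and ADAMTS12 has been linked to the cleavage of cartilage oligomeric matrix protein. In tendon these enzymes and inhibitors take part in the turnover of the fibre matrix and of the proteoglycans between the fibres.

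RefSeq promoters, 250 bases before to 50 bases after the start of the gene, were available for 8 of the 10 genes. Those of Timp1, Timp4 and Adamts1 are shown, because over all cells Timp1 was the member that was higher in injured tissue, Timp4 was the member with the lowest ratio, and these 3 genes belong to the 4 that differed more than 2-fold. They were read from the GRCm38.p6 table in the direction of transcription, and capitals mark the motifs found by a search for AP-1 (TGANTCA), an AP-1 variant (TGAGTAA), CRE (TGACGTCA), STAT (TTCNNNGAA) and RUNX (TGTGGT) on both strands and a TATA box (TATAAA).
Timp1, chrX:20869916-20870215, plus strand: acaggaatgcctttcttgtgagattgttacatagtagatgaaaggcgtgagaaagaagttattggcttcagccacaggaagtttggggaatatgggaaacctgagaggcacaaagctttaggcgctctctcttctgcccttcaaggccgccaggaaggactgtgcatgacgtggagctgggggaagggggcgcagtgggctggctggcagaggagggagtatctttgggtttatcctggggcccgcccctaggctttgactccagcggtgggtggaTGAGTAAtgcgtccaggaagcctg
Timp4, chr6:115252156-115252455, minus strand: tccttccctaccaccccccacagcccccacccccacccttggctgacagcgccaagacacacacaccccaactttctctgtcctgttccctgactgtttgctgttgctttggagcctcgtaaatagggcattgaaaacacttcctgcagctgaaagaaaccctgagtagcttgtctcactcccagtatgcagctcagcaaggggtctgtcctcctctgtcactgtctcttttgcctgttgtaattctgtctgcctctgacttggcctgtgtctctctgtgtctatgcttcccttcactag
Adamts1, chr16:85803064-85803363, minus strand: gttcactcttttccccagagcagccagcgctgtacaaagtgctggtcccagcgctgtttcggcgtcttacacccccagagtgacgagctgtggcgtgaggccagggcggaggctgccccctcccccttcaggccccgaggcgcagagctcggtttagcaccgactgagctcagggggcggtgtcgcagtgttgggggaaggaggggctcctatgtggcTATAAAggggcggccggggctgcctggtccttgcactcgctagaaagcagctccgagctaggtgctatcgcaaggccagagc
The AP-1 variant stood 26 bases after the start of Timp1 and is found in 2.68% of the 32851 promoters of the table. It was added to the search after the sequence had been seen. The TATA box stood 32 bases before the start of Adamts1 and is found in 13.6% of promoters. The other letters searched were in none of the 8 windows of the members. They are in 7.81% (AP-1), 1.79% (CRE), 8.30% (STAT) and 16.8% (RUNX) of all promoters. A match is a description of the letters and not of a site in use. The 3 printed windows had a GC content of 55.0% (Timp1), 53.3% (Timp4) and 64.7% (Adamts1), against a median of 52.7% over all promoters, and that of Adamts2 had 77.3%.

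The injured library held 10691 barcodes and 253050820 UMIs, and the uninjured library held 6850 barcodes and 101685524 UMIs. After filters on genes, mitochondrial RNA and doublets, 9137 injured and 4697 uninjured cells were kept, with medians of 17461 and 15744 UMIs. The mitochondrial limit was passed by 7.49% of injured and 26.4% of uninjured barcodes, and 19 barcode sequences occurred in both libraries. Cells with Xist but without Y-linked RNA (Xist cells) numbered 3562 in the injured and 2407 in the uninjured library, and those with Y-linked RNA but without Xist (Y-linked cells) numbered 3480 and 1520, so both libraries held cells of males and females. Vegfd had 95.4 UMIs per 1000000 (CPM) in injured and 23.6 CPM in uninjured cells, and 197 against 66.6 CPM in mesenchymal cells.

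The classes compared were mesenchymal cells (2284 injured and 1279 uninjured), mononuclear phagocytes (2823 and 432), vascular endothelial cells (1144 and 1654), pericytes or smooth muscle cells, also called mural cells (451 and 208), lymphatic endothelial cells (83 and 84), Schwann cells (100 and 168), dendritic cells (294 and 89) and a small class named perineurial (79 and 82). Each name means cells like that type by their marker genes, since no cells were sorted and no annotation of the cells was used. Tenocyte markers were present in the tissue, as its label requires. Scx and Tnmd, a transcription factor and a membrane protein of tendon cells, had 118 and 246 CPM in injured and 268 and 728 CPM in uninjured mesenchymal cells. The lymphatic cluster was led by Ccl21a, Mmrn1 and Lyve1 and also by Prox1 and Flt4, which define lymphatic endothelium. Different clusters held the mesenchymal class in each library, so a ratio over this class also follows which cells were present. Injured cells lay mainly in a cluster led by Tnc and C1qtnf3 (1179 cells), one led by Col14a1 and Eln (745 cells) and a cycling one led by Hist1h1b and Tnc (238 cells), and chondrocyte markers scored highest in the first and the last of these. Uninjured cells lay mainly in a cluster led by Gsn and Clec3b (708 cells), a tenocyte-like cluster led by Mgp and Fmod (372 cells) and one led by Gsn and Inmt (179 cells). The 10 genes themselves were left out of clustering.

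Over all kept cells, Timp1 was more than 2-fold higher in injured tissue and Timp3, Timp4 and Adamts1 were more than 2-fold lower. Levels are given as CPM, and a gene is counted as higher or lower when the log2 ratio of CPM, injured over uninjured and with 5 CPM added to each, is beyond 1 in size. Timp1 had 530 CPM in injured and 174 CPM in uninjured cells, 3.05-fold higher (2.997 to 3.099). Timp3 had 292 CPM in injured and 853 CPM in uninjured cells, 2.92-fold lower (2.888 to 2.949). Timp4 had 14.2 CPM in injured and 354 CPM in uninjured cells, 24.9-fold lower (23.99 to 25.76). Adamts1 had 126 CPM in injured and 275.0 CPM in uninjured cells, 2.19-fold lower (2.155 to 2.229). The counts of 1 higher and 3 lower of 10 members stand against 4.59% higher and 5.79% lower of the 12098 genes at 5 CPM or more. These totals over all cells also follow the makeup of the libraries, and fewer cells of a type and less RNA per cell cannot be told apart in them. Phagocytes and neutrophils, whose levels of most members were low, made up a larger part of the injured library, and vascular endothelial cells a larger part of the uninjured one. The values within classes follow.

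**Figure D1:**
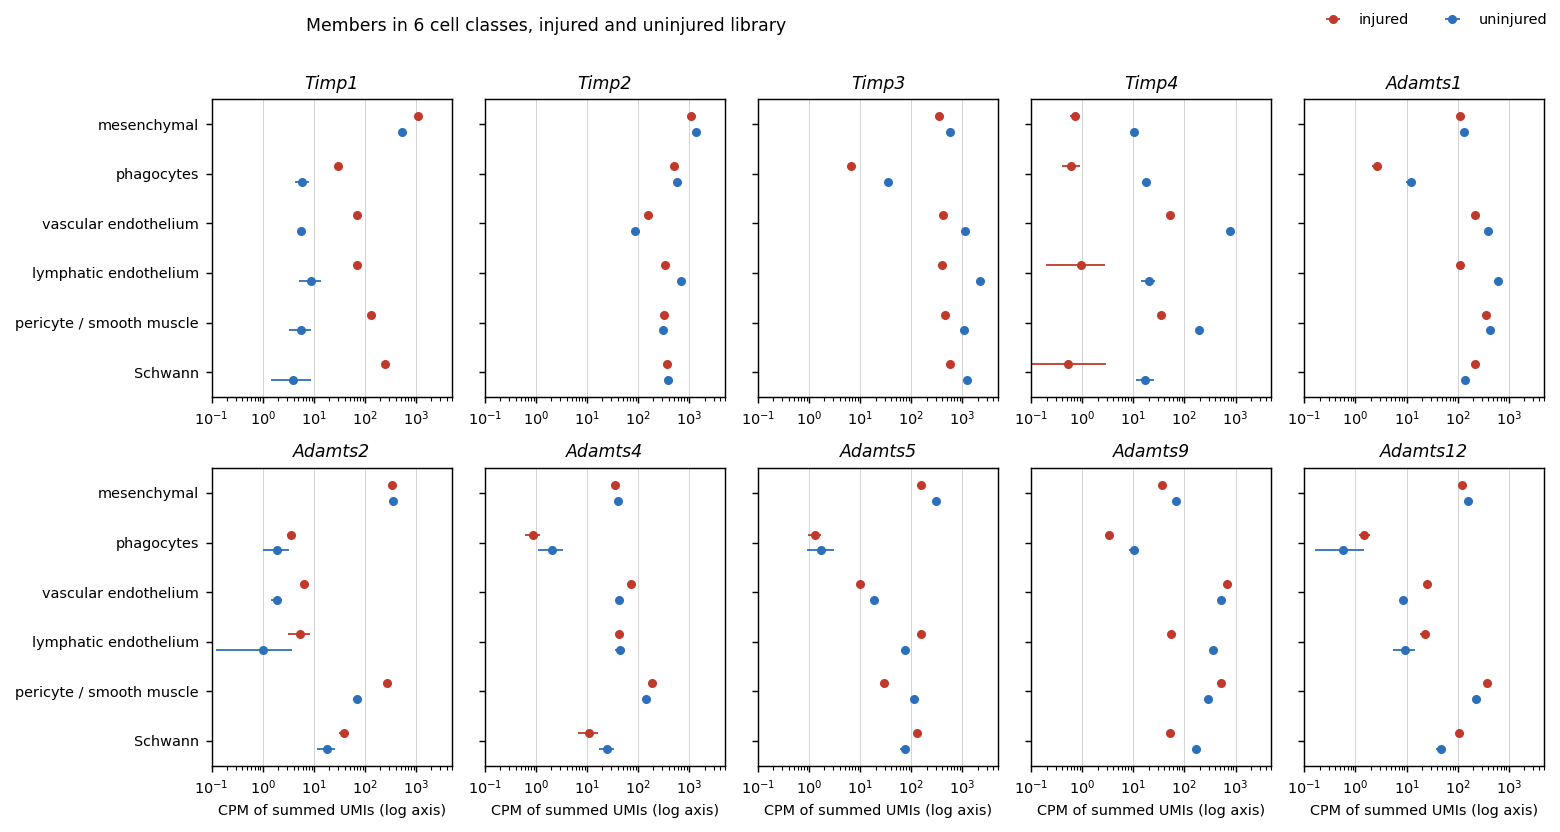
Level of each gene (summed UMIs per 1000000 UMIs of the class, log axis) in 6 cell classes of the injured (red) and uninjured (blue) library, with exact 95% counting intervals, which are often smaller than the point. Timp1 lies to the right in the injured library in each class shown, from 29.2 against 5.94 CPM in phagocytes to 1082 against 538 CPM in mesenchymal cells, and Timp4 and Timp3 lie to the left.

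Timp1 RNA came mostly from mesenchymal cells, which held 93.0% of its UMIs in the injured and 96.5% in the uninjured library. In these cells Timp1 had 1082 CPM in injured and 538 CPM in uninjured tissue, 2.01-fold higher (1.976 to 2.045), which lies at the edge of the threshold. It was seen in 95.4% of injured and 63.6% of uninjured mesenchymal cells. Injured mesenchymal cells were also read more deeply, with medians of 45397 against 19798 UMIs. With each cell thinned to 3000 UMIs, the shares were 71.0% of injured and 32.6% of uninjured cells.

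The level of Timp1 differed more between mesenchymal clusters than between the libraries. In the uninjured library the tenocyte-like cluster led by Mgp and Fmod had 1462 CPM and held 85.0% of the class's Timp1 UMIs, while the Gsn and Clec3b cluster had 90.2 CPM and the Gsn and Inmt cluster 194 CPM. In the injured library the cycling cluster had 1705 CPM, the Tnc and C1qtnf3 cluster 1295 CPM and the Col14a1 and Eln cluster 379 CPM. The tenocyte-like cells of uninjured tissue thus had a level in the range of the leading injured clusters. Without the tenocyte-like cluster the class log2 ratio was 3.14 in place of 1.00, an alternative chosen after the data were seen. The Gsn and Clec3b cluster was the mesenchymal cluster with 50 or more cells in each library, 96 injured and 708 uninjured. There Timp1 had 171 CPM in injured and 90.2 CPM in uninjured cells, 1.90-fold higher (1.695 to 2.125).

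**Figure D2:**
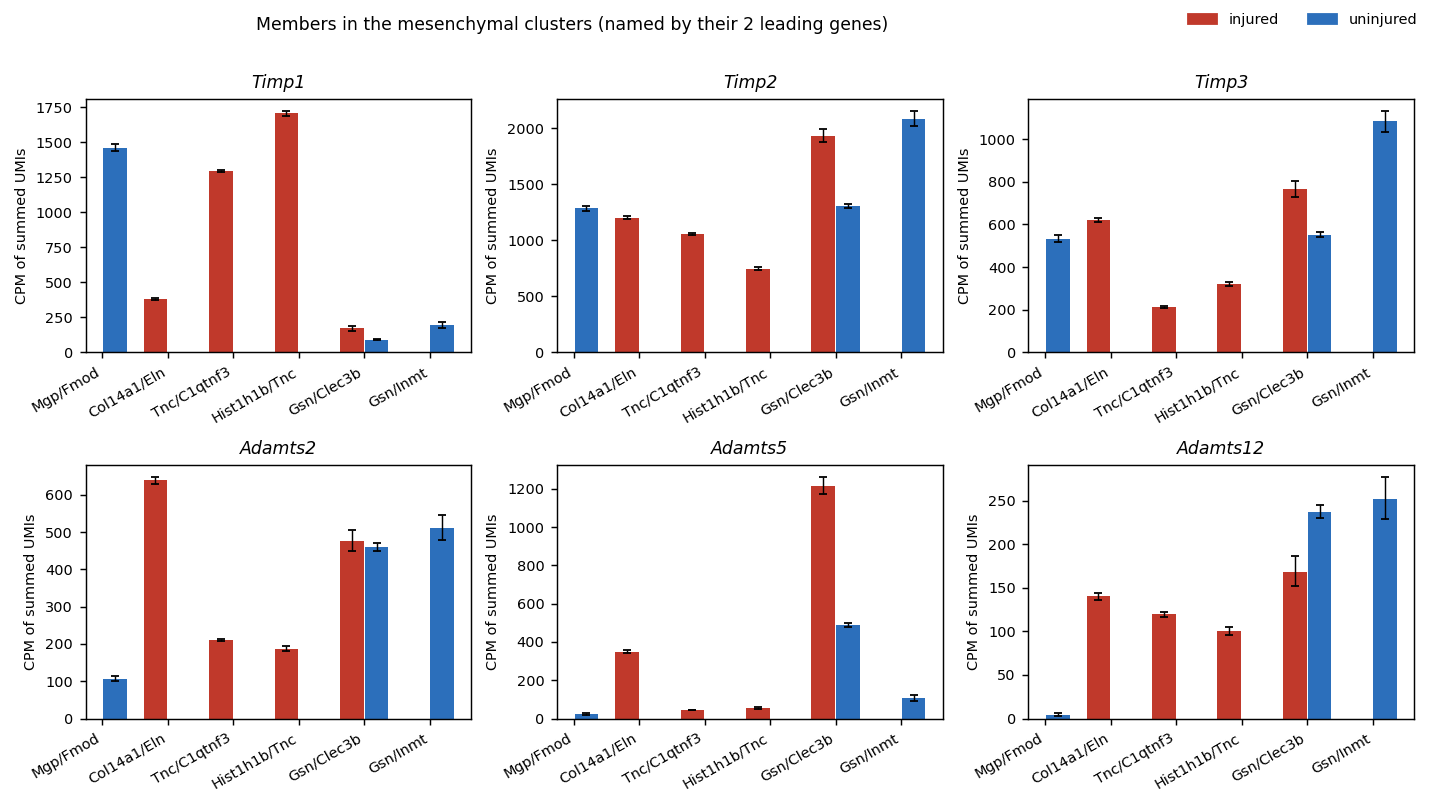
Level of 6 genes (CPM of summed UMIs, with exact 95% counting intervals) in the mesenchymal clusters of the injured (red) and uninjured (blue) library, with no bar where a library had under 50 cells of the cluster. Timp1 is high in the uninjured Mgp/Fmod tenocyte-like cluster (1462 CPM) as in the injured Tnc/C1qtnf3 and Hist1h1b/Tnc clusters (1295 and 1705 CPM), and Adamts5 is highest in the injured cells of the Gsn/Clec3b cluster (1215 CPM).

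Outside the mesenchyme Timp1 was low in uninjured tissue and higher in injured tissue in each class compared. In vascular endothelial cells it had 68.7 CPM in injured and 5.68 CPM in uninjured tissue, 12.1-fold higher (10.38 to 14.16). The direction was the same in each vascular cluster, but the ratio was smaller than over the class in each except the cycling one. In the cluster led by Selp, Timp1 had 51.8 CPM in injured and 22.1 CPM in uninjured cells, 2.35-fold higher (1.79 to 3.119). In pericytes or smooth muscle cells it had 134 CPM in injured and 5.49 CPM in uninjured tissue, 24.3-fold higher (15.13 to 41.86). In Schwann cells, the glia of peripheral nerve, it had 243 CPM in injured and 3.96 CPM in uninjured tissue, a ratio of 61.5 (28.06 to 168.5) that rests on 471 and 6 UMIs. Lymphatic endothelial cells had 68.5 CPM in injured and 8.65 CPM in uninjured tissue, 7.92-fold higher. Dendritic cells had 60.6 CPM in injured and 4.71 CPM in uninjured tissue, and phagocytes had 29.2 against 5.94 CPM. The order of the classes in injured tissue was mesenchymal, Schwann, perineurial (176 CPM), pericyte or smooth muscle, vascular, lymphatic, dendritic and phagocyte. The counting intervals of vascular, lymphatic and dendritic cells overlapped, and those of the other neighbours did not. Of the 100 injured Schwann cells, 1 held 17.4% of their Timp1 UMIs. Without it the Schwann level was 205 CPM, nearer to the perineurial one.

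Free RNA from mesenchymal cells can give Timp1 UMIs in other droplets, so its level was set beside Col1a1, a collagen gene of the same cells. Injured mesenchymal cells had 55.0 Timp1 UMIs per 1000 Col1a1 UMIs. Neutrophils had 49.6 and T or NK cells 64.9, which is about the mesenchymal ratio, and 6.33% of neutrophils (median 3965 UMIs) and 9.91% of T or NK cells (median 7486 UMIs) had a Timp1 UMI. Thinned to 3000 UMIs per cell, these background shares were 4.91% and 4.33%. Vascular endothelial cells lay above both measures, with 366 Timp1 UMIs per 1000 Col1a1 UMIs and a Timp1 UMI in 57.0% of injured cells (median 24676.5 UMIs) against 8.22% of uninjured cells (median 14157.5 UMIs). Their thinned shares were 12.4% in injured and 1.66% in uninjured cells. The ratio to Col1a1 was also above the mesenchymal one in injured lymphatic endothelial cells (201), Schwann cells (153), phagocytes (163) and dendritic cells (390). In uninjured tissue it was 41.1 in mesenchymal cells and also higher in vascular cells (107), phagocytes (116) and lymphatic cells (288). It was lower in uninjured mural (9.36), Schwann (9.63) and perineurial cells (7.01), and in injured perineurial cells (25.1). In injured pericytes or smooth muscle cells it was 61.4, close to the mesenchymal value, although 63.9% of these cells had a Timp1 UMI and the thinned share was 23.3% against 2.44% in uninjured tissue. Col1a1 itself had 2174 CPM in injured and 587 CPM in uninjured pericytes or smooth muscle cells, so the part of free RNA in their Timp1 was not told apart from their own.

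Of the inhibitors, Timp2 had the ratio closest to 1 over all cells, with 649 CPM in injured and 554 CPM in uninjured tissue. In mesenchymal cells, which held 74.9% of its UMIs in the injured and 75.0% in the uninjured library, it had 1068 CPM in injured and 1332 CPM in uninjured tissue, 1.25-fold lower (1.233 to 1.262). In phagocytes it had 512 CPM in injured and 576 CPM in uninjured tissue, and 81.3% against 93.8% of cells had a UMI. Within phagocytes its level followed the cluster. A macrophage-like cluster led by Ccl8 and F13a1 had 1044 CPM in injured and 815 CPM in uninjured cells, while injured cells of a cluster led by Cd74 and H2-Aa, in which monocyte markers scored highest, had 109 CPM. Timp2 passed the threshold in lymphatic endothelial and dendritic cells, and in lymphatic cells the call held in 7 of 12 alternatives. Lymphatic endothelial cells had 329 CPM in injured and 690 CPM in uninjured tissue, 2.10-fold lower (1.934 to 2.276). Dendritic cells had 49.0 CPM in injured and 120 CPM in uninjured tissue. In vascular endothelial cells it had 156 CPM in injured and 86.0 CPM in uninjured tissue, and the clusters of this class differed in direction. The Cldn5 and Stmn2 cluster had 331 CPM in injured and 115 CPM in uninjured cells, and the Plvap and Ctla2a cluster had 94.0 CPM in injured and 201 CPM in uninjured cells.

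Timp3, the matrix-bound inhibitor, was lower in injured tissue in each class compared. Lymphatic endothelial cells had 402 CPM in injured and 2234 CPM in uninjured tissue, 5.56-fold lower (5.226 to 5.924), and the uninjured value was the highest of the classes measured. Vascular endothelial cells had 416 CPM in injured and 1131 CPM in uninjured tissue, 2.72-fold lower (2.67 to 2.771). Pericytes or smooth muscle cells had 460 CPM in injured and 1090 CPM in uninjured tissue, 2.37-fold lower (2.265 to 2.475). Schwann cells had 563 CPM in injured and 1231 CPM in uninjured tissue, 2.19-fold lower (2.028 to 2.359). Mesenchymal cells had 357 CPM in injured and 566 CPM in uninjured tissue, which did not pass the threshold. Phagocytes had 6.49 CPM in injured and 35.5 CPM in uninjured tissue, which in both libraries is far under the levels of the vessel and nerve cells. Within the vascular class the direction was the same in the 5 clusters and the ratio was smaller in each than over the class, from 1328 against 2052 CPM in the Cldn5 and Stmn2 cluster and 933 against 1130 CPM in the Cd36 cluster to 237 against 635 CPM in the cycling cluster led by Ctla2a and Hist1h2ap. In the Gsn and Clec3b mesenchymal cluster it ran the other way, with 765 CPM in injured and 551 CPM in uninjured cells, 1.39-fold higher (1.318 to 1.462). With cells thinned to 3000 UMIs, a Timp3 UMI was seen in 63.3% of injured and 97.5% of uninjured lymphatic cells, and in 59.5% of injured and 88.6% of uninjured vascular cells.

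Timp4 had the lowest ratio of the 10 genes over all cells and belonged mainly to vascular endothelial cells. Vascular endothelial cells held 60.4% of its UMIs in the injured and 78.7% in the uninjured library, with 51.3 CPM in injured and 794 CPM in uninjured tissue, 15.5-fold lower (14.79 to 16.19). A UMI was seen in 18.2% of injured and 80.8% of uninjured vascular cells, and after thinning in 9.06% and 67.2%. Most of the class's Timp4 UMIs lay in a single cluster, led by Cd36, Timp4 itself, Aqp1, Fabp4 and Gpihbp1, the last of these a lipase anchor of capillaries. It made up 11.6% of the injured and 72.0% of the uninjured vascular cells, and held 85.3% and 88.1% of the class's Timp4 UMIs. Within it Timp4 had 836 CPM in injured and 1046 CPM in uninjured cells, 1.25-fold lower (1.192 to 1.315). In the other vascular clusters the level was lower and the ratio larger. The Plvap and Ctla2a cluster had 5.24 CPM in injured and 98.1 CPM in uninjured cells, the cycling cluster had 10.96 against 470 CPM, and the Cldn5 and Stmn2 cluster, which has the arterial genes Sema3g and Sox17 among its leading genes, had 40.9 against 454 CPM. Without the Cd36 cluster the log2 ratio of the class was -4.49, against -3.83 with it.

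**Figure D3:**
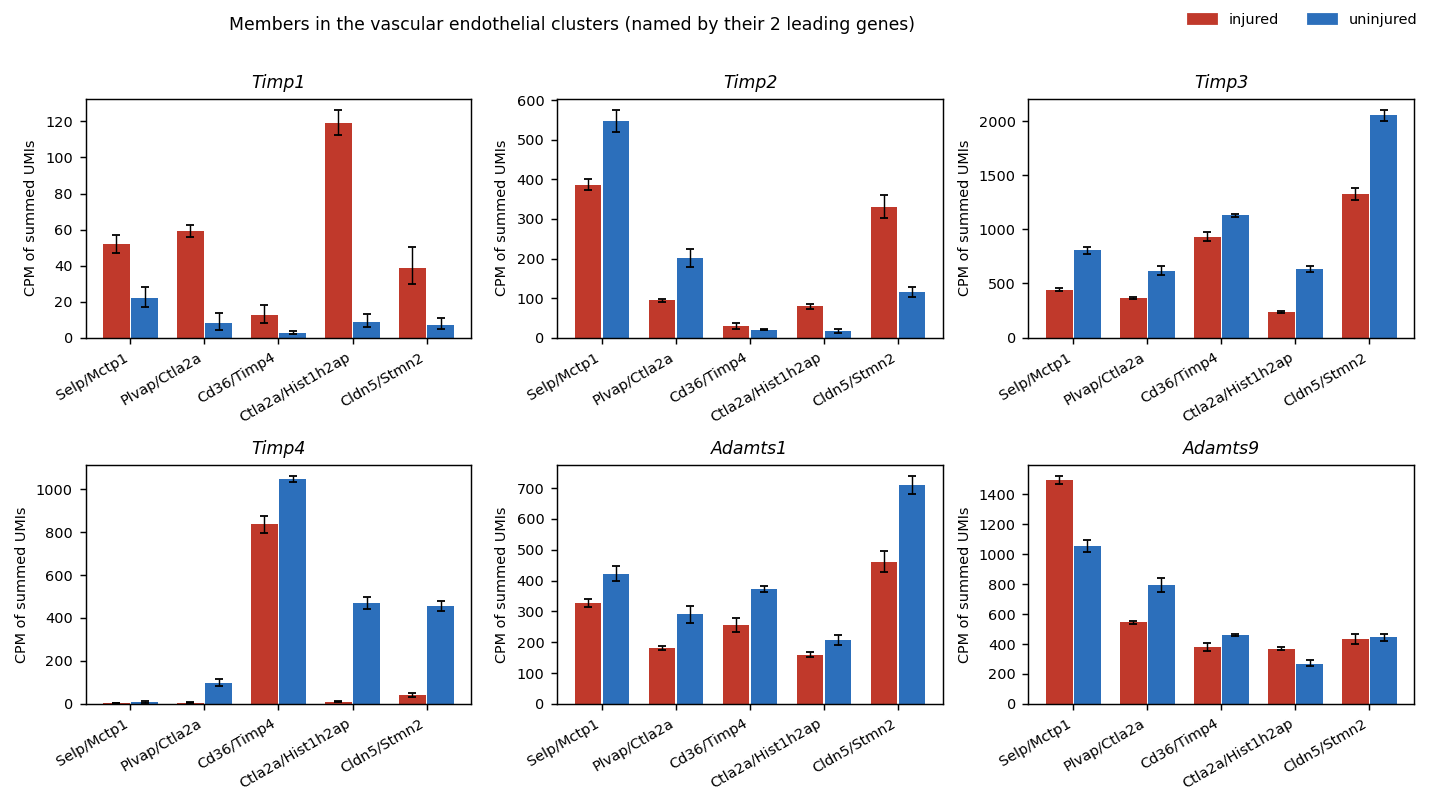
Level of 6 genes (CPM of summed UMIs, with exact 95% counting intervals) in the 5 vascular endothelial clusters of the injured (red) and uninjured (blue) library. Timp4 stands highest in the Cd36 cluster of both libraries (836 and 1046 CPM), Adamts9 in the Selp cluster (1494 and 1055 CPM) and Timp1 in the injured cells of the cycling cluster (119 CPM against 8.92 CPM).

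In pericytes or smooth muscle cells Timp4 had 34.8 CPM in injured and 194 CPM in uninjured tissue, 5.59-fold lower (4.896 to 6.384). The uninjured cells there came mainly from a cluster led by Myh11 and Acta2, contractile genes of smooth muscle, with 325 CPM. In the cluster led by Rgs5, a gene of pericytes, which held 399 injured and 75 uninjured cells, the level was 19.9 CPM in injured and 31.2 CPM in uninjured cells. In the other classes Timp4 was low and was set beside the endothelial gene Gpihbp1. Injured mesenchymal cells, phagocytes and Schwann cells had 0.728, 0.609 and 0.517 CPM, and their uninjured counterparts 10.4, 17.5 and 17.1 CPM. The injured Schwann value is 1 UMI, and the ratio there has an interval of 5.45 to 1360-fold lower. Uninjured phagocytes had 538 Timp4 UMIs per 1000 Gpihbp1 UMIs and uninjured vascular cells 597, so the phagocyte ratio was no higher than that of vascular RNA. Uninjured mesenchymal cells had 1442, dendritic cells 1261, Schwann cells 839 and perineurial cells 833, above the vascular value. Lymphatic cells, with 86.1, lay under it. The 4 haemoglobin genes of the list of free and other cell RNA, which mark red cells, ran the same way as Timp4 in vascular cells, with Hbb-bs at 224 CPM in injured and 1714 CPM in uninjured tissue. Of the 12 genes of that list, 5 were higher and 5 lower in vascular cells, with summed levels of 825 CPM in injured and 3437 CPM in uninjured cells, and their part in the results was not tested. The same list had 5 higher and 6 lower over all cells, 3 and 5 in mesenchymal cells, 6 and 5 in mural cells, 5 and 3 in lymphatic cells and 7 and 2 in phagocytes. It had 9 higher and 0 lower in dendritic cells and 5 and 1 in Schwann cells, with summed levels of 1192 and 3202 CPM in injured and 182 and 979 CPM in uninjured cells. The shares of all genes called in the same classes are given with the counts of members.

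Among the proteases that cleave aggrecan and versican, Adamts1 was lower over all cells but passed the threshold in few classes. In vascular endothelial cells it had 221 CPM in injured and 394 CPM in uninjured tissue, 1.79-fold lower (1.737 to 1.835). It was lower in each of the 5 vascular clusters, for example 460 against 709 CPM in the Cldn5 and Stmn2 cluster. Mesenchymal cells had 113 CPM in injured and 133 CPM in uninjured tissue, pericytes or smooth muscle cells had 363 against 434 CPM, and Schwann cells had 218 against 140 CPM. Lymphatic endothelial cells had 113 CPM in injured and 611 CPM in uninjured tissue, 5.43-fold lower (4.823 to 6.125), but 1 uninjured cell held 60.5% of the uninjured UMIs. Without the cell highest in each library the log2 ratio was -1.37, against -2.39 with it. Adamts1 is known as an early response gene. Fos and Jun, subunits of AP-1, had 706 and 369 CPM in injured and 1291 and 658 CPM in uninjured cells, and 198 and 164 CPM in injured and 994 and 703 CPM in uninjured lymphatic cells. In Schwann cells, where Adamts1 was not lower, Fos had a log2 ratio of -2.13 and Jun of -1.23. The part of an early response was not tested. The 305 keratinocytes, present in the injured library alone, had 152 CPM.

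Adamts4 had 42.0 CPM in injured and 45.9 CPM in uninjured tissue over all cells. It stood highest in pericytes or smooth muscle cells, with 186 CPM in injured and 145 CPM in uninjured tissue. Within the Rgs5 cluster these values were 185 and 189 CPM, with a ratio of 0.975 (0.8401 to 1.137). Vascular endothelial cells had 71.6 CPM in injured and 41.7 CPM in uninjured tissue, 1.72-fold higher (1.608 to 1.836). The Plvap and Ctla2a cluster ran the other way, with 61.3 against 98.1 CPM, and the Cd36 cluster was also lower in injured cells. The cluster led by Selp had 104 against 114 CPM, a ratio of 0.910 (0.7985 to 1.038). The class ratio thus also follows which vascular clusters were present. Mesenchymal cells had 35.7 CPM in injured and 39.7 CPM in uninjured tissue. Adamts4 did not pass the threshold in any of the 8 classes compared.

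Adamts5, the other main aggrecanase of mouse cartilage, was lower in some cell types of injured tissue and higher in others. Mesenchymal cells held 89.4% of its UMIs in the injured and 79.8% in the uninjured library, with 156 CPM in injured and 307 CPM in uninjured tissue, 1.97-fold lower (1.917 to 2.02). The clusters behind this class value ran apart. The injured Tnc and C1qtnf3 and cycling clusters had 44.6 and 54.8 CPM, the uninjured tenocyte-like cluster had 23.4 CPM, and the injured Col14a1 and Eln cluster had 349 CPM. In the Gsn and Clec3b cluster, which has Pi16 among its leading genes, Adamts5 had 1215 CPM in injured and 487 CPM in uninjured cells, 2.50-fold higher (2.389 to 2.606). No other cluster with 50 or more cells of a library had a higher level of Adamts5. Pericytes or smooth muscle cells had 29.7 CPM in injured and 115 CPM in uninjured tissue, 3.88-fold lower (3.326 to 4.538), and within the Rgs5 cluster 20.8 against 76.1 CPM, 3.66-fold lower (2.776 to 4.784). Lymphatic endothelial cells had 154 CPM in injured and 73.7 CPM in uninjured tissue, 2.10-fold higher (1.738 to 2.539), a log2 ratio of 1.02 at the edge of the threshold. Schwann cells had 131 CPM in injured and 74.5 CPM in uninjured tissue.

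Adamts9, a versican and aggrecan protease, was mainly endothelial, and vascular cells held 64.1% of its UMIs in the injured and 66.9% in the uninjured library. They had 685 CPM in injured and 511 CPM in uninjured tissue, 1.34-fold higher (1.315 to 1.368). The Selp cluster, with the venular genes Ackr1 and Sele among its leading genes, stood highest with 1494 CPM in injured and 1055 CPM in uninjured cells, and Adamts9 is itself among its leading genes. The Plvap and Ctla2a cluster ran the other way, with 544 CPM in injured and 793 CPM in uninjured cells. The Cd36 cluster, with 11.6% of the injured and 72.0% of the uninjured vascular cells, was also lower in injured cells. The Cldn5 and Stmn2 cluster was lower by little, so the class ratio also follows which vascular clusters were present. In lymphatic endothelial cells Adamts9 had 55.4 CPM in injured and 358 CPM in uninjured tissue, 6.47-fold lower (5.478 to 7.671). In Schwann cells it had 53.2 CPM in injured and 166 CPM in uninjured tissue, 3.11-fold lower (2.462 to 3.949). In the Rgs5 cluster it had 545 CPM in injured and 194 CPM in uninjured cells, 2.81-fold higher (2.434 to 3.249), while the whole mural class, at 529 against 285 CPM, stayed under the threshold.

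Adamts2, the procollagen N-proteinase, was mesenchymal, with 89.5% of its UMIs in that class in the injured and 91.1% in the uninjured library. Mesenchymal cells had 333 CPM in injured and 350 CPM in uninjured tissue, 1.05-fold lower (1.029 to 1.077). By cluster the injured cells led by Col14a1 and Eln had 639 CPM and those led by Tnc and C1qtnf3 had 210 CPM, and the uninjured tenocyte-like cluster had 107 CPM. In the Gsn and Clec3b cluster the levels were 477 CPM in injured and 460 CPM in uninjured cells, with a ratio of 1.04 (0.9714 to 1.104). In pericytes or smooth muscle cells Adamts2 had 268 CPM in injured and 70.1 CPM in uninjured tissue, 3.82-fold higher (3.326 to 4.407). Within the Rgs5 cluster it had 271 CPM in injured and 104 CPM in uninjured cells, 2.60-fold higher (2.141 to 3.184). In injured pericytes or smooth muscle cells 82.0% had an Adamts2 UMI, against 51.4% of uninjured ones, and the thinned shares were 48.2% and 19.0%.

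Adamts12 was shared by mesenchymal cells and mural cells. Mesenchymal cells had 123 CPM in injured and 162 CPM in uninjured tissue, 1.32-fold lower (1.277 to 1.367), and the uninjured tenocyte-like cluster had 4.64 CPM beside 237 CPM in the uninjured Gsn and Clec3b cluster. Pericytes or smooth muscle cells had 379 CPM in injured and 232 CPM in uninjured tissue. Within this class the Rgs5 cluster had 414 CPM in injured and 480 CPM in uninjured cells, and the uninjured Myh11 cluster had 19.98 CPM. The part of the cluster makeup in the class difference was not tested. Adamts12 was higher past the threshold in vascular endothelial cells, at 25.1 CPM in injured and 8.52 CPM in uninjured tissue. It also passed in Schwann cells, at 109 CPM in injured and 47.5 CPM in uninjured tissue, and in lymphatic cells, at 23.5 against 9.15 CPM on 75 and 18 UMIs.

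Counted by class, members were called in both directions, and the counts are read against the share of all genes called in the same class. In mesenchymal cells 1 of 10 was higher (Timp1) and 1 lower (Timp4), against 3.90% and 6.15% of genes, which is near the background. In phagocytes 1 was higher (Timp1) and 3 lower (Timp3, Timp4 and Adamts1), against 2.73% and 4.18%. Of the 83 Adamts1 UMIs of uninjured phagocytes, 31.3% lay in 1 cell. Without the cell highest in each library, Adamts1 had 2.345 CPM in injured and 8.334 CPM in uninjured phagocytes. The highest uninjured phagocyte held 19.2% of the Timp3 UMIs and that for Timp4 21.5%. Without such cells Timp3 had 6.05 against 28.95 CPM and Timp4 0.211 against 13.8 CPM. Uninjured phagocytes had 1089 Timp3 UMIs per 1000 Gpihbp1 UMIs, and uninjured vascular cells 850. The part of free vascular RNA in these phagocyte values was not tested. In vascular endothelial cells 2 were higher (Timp1 and Adamts12) and 2 lower (Timp3 and Timp4), against 3.83% and 3.79%. In pericytes or smooth muscle cells 2 were higher (Timp1 and Adamts2) and 3 lower (Timp3, Timp4 and Adamts5), against 7.11% and 5.56%. In lymphatic endothelial cells 3 were higher (Timp1, Adamts5 and Adamts12) and 5 lower (Timp2, Timp3, Timp4, Adamts1 and Adamts9), against 10.0% and 9.72%. In Schwann cells 2 were higher (Timp1 and Adamts12) and 3 lower (Timp3, Timp4 and Adamts9), against 10.8% and 8.48%. Dendritic cells had 1 higher (Timp1) and 4 lower (Timp2, Timp3, Timp4 and Adamts1), against 7.08% and 5.36%. Of these lower calls, Adamts1 rested on 3 injured and 15 uninjured UMIs, Timp4 on 1 and 58, and Timp3 on 32 and 55. The small perineurial class had 1 higher (Timp1, at 176 against 52.9 CPM) and 1 lower (Timp4, on 1 and 10 UMIs), against 11.6% and 5.15%. The median log2 ratio of the 10 members was -0.35 in mesenchymal cells, where that of all genes was -0.06. It was 0.57 in vascular, 0.24 in mural and -0.54 in lymphatic cells, with 0.03, 0.03 and -0.01 over all genes. All 10 members reached 5 CPM in at least 1 library in these classes, and 6 of 10 did so in phagocytes and in dendritic cells.

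Since both libraries held cells of both sexes, each ratio was also taken within the Y-linked cells and within the Xist cells. In vascular endothelial cells the 10 members had the same direction in both sets, and 4 passed the threshold in both. In lymphatic cells the direction was the same for 10, but Adamts1 had log2 ratios of -0.86 in Y-linked and -0.11 in Xist cells, under the threshold in both. In Schwann cells the direction was the same for 9, in phagocytes and mural cells for 8 and in mesenchymal cells for 7. No member passed the threshold in opposite directions in the 2 sets in the classes listed. Timp1 in mesenchymal cells had a log2 ratio of 0.86 in each set, under the value of 1.00 over all cells of the class. The lymphatic and Schwann sets held few cells, and sex and animal cannot be told apart in these sets.

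**Figure D4:**
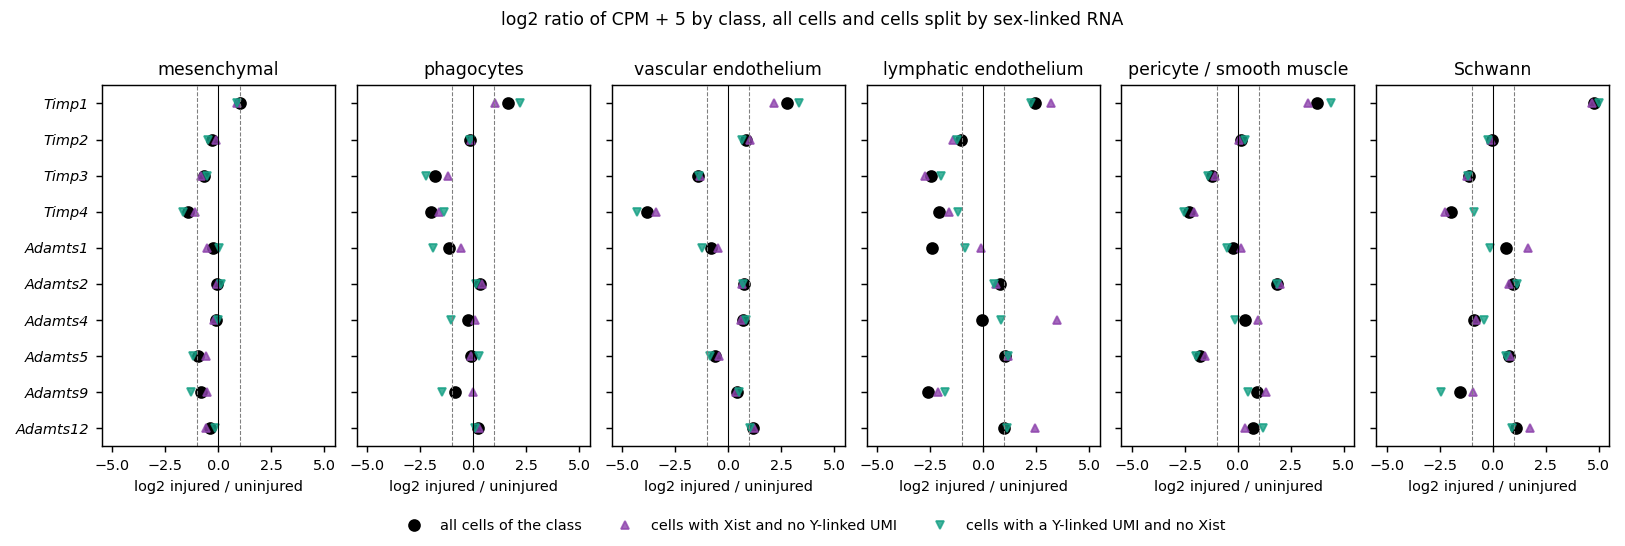
log2 ratio, injured over uninjured, of CPM with 5 CPM added (x axis) for each gene in 6 classes, over all cells of the class (black) and over cells split by sex-linked RNA (triangles), with dashed lines at 2-fold. In vascular cells the Y-linked and Xist sets lie close together for Timp3 (-1.39 and -1.32) and further apart for Timp1 (3.36 and 2.16), Timp4 (-4.32 and -3.40) and Adamts1 (-1.23 and -0.47).

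The targets, substrates and relatives of the members were read from gene lists chosen with earlier results of these data known. Of 20 metalloproteinases listed as targets of TIMPs, 9 were higher and 1 lower over all cells, with a median log2 ratio of 0.67 against -0.04 for all genes. Of all genes at 5 CPM or more, 4.59% were higher and 5.79% lower. Whether TIMPs inhibit each gene product of this list was not examined. Mmp9, a gelatinase of phagocytes and osteoclasts, had 56.1 CPM in injured and 1.37 CPM in uninjured cells, and in phagocytes 217 against 13.1 CPM. Mmp14, the membrane protease that works with TIMP-2, had 514 CPM in injured and 205 CPM in uninjured cells. It was 201 against 44.7 CPM in vascular and 543 against 172 CPM in lymphatic endothelial cells. Adam12 was higher in injured tissue in mesenchymal (450 against 99.0 CPM), vascular (106 against 15.8 CPM) and mural cells (208 against 14.5 CPM). Mmp15 had 8.62 CPM in injured and 36.9 CPM in uninjured cells. Within mesenchymal cells 5 of the 20 were higher and 0 lower, among them Mmp3 with 154 against 65.8 CPM and Mmp13, the collagenase of cartilage, with 27.5 against 5.00 CPM. Of all genes, 3.90% were higher and 6.15% lower in that class.

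Of 9 proteoglycans and other substrates, Acan, the aggrecan core protein, was higher in injured mesenchymal cells, with 202 CPM in injured and 7.90 CPM in uninjured tissue. Dcn and Fmod, small proteoglycans of the tendon matrix, were lower, with 3390 and 222 CPM in injured and 8272 and 938 CPM in uninjured cells, and no other gene of the list was called in this class. The shares of all genes called there were 3.90% higher and 6.15% lower. Vcan, the versican core protein, was higher in injured vascular cells (62.3 against 10.9 CPM), mural cells (74.4 against 8.40 CPM) and phagocytes (121 against 14.6 CPM). Of the 5 procollagens that ADAMTS2 can process, 4 were higher in injured mural cells, with Col3a1 at 3911 against 1481 CPM. Of all genes, 7.11% were higher in that class, and Adamts2 was also higher there. The part of free mesenchymal RNA in these mural values was not tested. In mesenchymal cells none of the 5 was called, with a median log2 ratio of 0.48 against -0.06 for all genes. The 4 that were higher in phagocytes and in vascular and lymphatic cells stood at levels where free mesenchymal RNA was not told apart, such as Col1a1 with 188 CPM in injured and 52.9 CPM in uninjured vascular cells. The shares of all genes higher in these classes were 2.73%, 3.83% and 10.0%.

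For the counts that follow, the shares of all genes called were 4.59% higher and 5.79% lower over all cells, and 3.90% and 6.15% in mesenchymal cells. Of the 13 other ADAMTS proteases 1 was higher and 0 lower over all cells, Adamts16 with 21.2 CPM in injured and 5.52 CPM in uninjured cells, and in mesenchymal cells it had 45.1 against 17.3 CPM. Of 7 ADAMTS-like proteins, which lack the protease domain, 0 were higher and 2 lower over all cells. Thsd4 was among the lower ones, with 7.29 CPM in injured and 29.4 CPM in uninjured cells. It had 48.8 against 211 CPM in mural cells and 51.3 against 159 CPM in lymphatic cells. Adamtsl1 was not called over all cells (112 against 116 CPM). It had 19.6 CPM in injured and 142 CPM in uninjured mural cells, and ran the other way in Schwann cells (197 against 65.3 CPM). Of 13 activators, cofactors, uptake receptors and inhibitors, 0 were higher and 2 lower in mesenchymal cells, namely Pcsk6, a proprotein convertase, with 20.1 CPM in injured and 136 CPM in uninjured cells, and Reck, a membrane inhibitor of metalloproteinases, with 22.6 against 54.2 CPM. Lrp1 and Sdc4, which take up these proteases, were not called there. Of 13 genes listed as inducers of Timp1 and Adamts genes, 4 were higher and 0 lower over all cells. Among the higher ones was Il1b, with 360.1 CPM in injured and 39.2 CPM in uninjured cells. Whether each gene of this list induces the members was not examined. In mural cells 6 were higher and 0 lower, among them Il6 with 247 against 38.1 CPM and Runx1 with 239 against 66.9 CPM. Of all genes, 7.11% were higher and 5.56% lower in that class. Schwann cells had 3 higher and 4 lower, and lymphatic cells 2 higher and 3 lower, with Fos, Jun and Socs3 among the lower ones in both. The shares of all genes higher and lower were 10.8% and 8.48% in Schwann cells and 10.0% and 9.72% in lymphatic cells.

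The genes most like each member across 20 pairs of class and library were found by the correlation of log2(CPM + 5), as a description over points that share libraries and depth. Adamts2 had the closest partners, Col6a1 (r = 0.990), Col6a2 (0.984) and Nnmt (0.977). Timp4 was followed by Tcf15 (0.972), Kcna5 (0.924) and Ccdc85a (0.903), and Timp1 by Tmem167 (0.910), Tmed2 (0.905) and Thbs2 (0.892). Timp3 and Adamts1 shared Epn2 (0.940 and 0.961) and Cdc42bpa (0.939 and 0.954) and had r = 0.928 with each other. Adamts5 was nearest to Frmd6 (0.945), Adamtsl1 (0.944) and Arhgef40 (0.919), Adamts12 to Bace1 (0.953), and Adamts9 to Dab2ip (0.927). Timp2 had the weakest leading partner, Rnase4 (0.878), and Adamts4 was nearest to Tcf7l1 (0.921). Timp1 and Timp4 had r = -0.451.

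In the mm10 (GRCm38) annotation Timp1 lies at chrX:20870166-20874735 and overlaps the gene Syn1 on the other strand, and Timp3 and Timp4 overlap Syn3 and Syn2 in the same way. The counting strand is not stated, but the UMIs of the partners were few beside those of the Timps, with 1095 injured and 276 uninjured UMIs of Syn1 against 126150 and 15373 of Timp1. For Timp4 the distance was smaller in injured tissue, with 678 injured and 700 uninjured UMIs of Syn2 against 3387 and 31261 of Timp4. Adamts9 overlaps the antisense gene 9530026P05Rik, with 6747 injured and 8936 uninjured UMIs against 42610 and 23649. Adamts1 and Adamts5 are neighbours on chromosome 16, 53060 bases apart with 1 annotated gene between them. They differed in their values, as in the Gsn and Clec3b cluster, where Adamts1 had 132 CPM in injured and 143 CPM in uninjured cells.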

How the data were processed

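Single-cell 3′ RNA was measured in 1 injured and 1 uninjured library. The deposited matrices hold UMI counts per gene and cell barcode, made with Cell Ranger 5.0.1 on mm10, per the file headers and the submitters' processing notes. Neither the annotation release nor the cell calling is stated. A cell needed at least 500 genes and no more than 10% of its UMIs from mitochondria. Scrublet's own threshold marked 1 cell in each library, so cells with a score over 0.2, a limit set after seeing the scores, were removed as doublets (2.44% of injured and 1.32% of uninjured cells). Both libraries were clustered together (scanpy 1.11.5, Python 3.11.15, 2000 variable genes without the 10 members, 30 components, 15 neighbours, Leiden resolution 0.8, seed 1). Clusters were named from 23 marker lists, and rules on red blood cells, on rival lists and on shallow clusters were added after the data were seen. Classes with 50 or more cells in each library were compared.

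UMIs were summed per class and library and given per 1000000 UMIs of the class (CPM). Ratios carry a pseudocount of 5 CPM on the log2 scale, and a gene is called beyond 2-fold. The background holds each gene that reached 5 CPM in either library. Levels carry exact Poisson, shares exact Clopper-Pearson and folds exact conditional 95% intervals (scipy 1.17.1), for counting error only. Shares of cells with a UMI were also taken with cells thinned to 3000 UMIs. With 1 library per group no test was possible. The ratio computation was checked on simulated counts.

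The members, the 8 gene lists and the marker lists were chosen with earlier results of these data known. The rule for named genes takes all members in the classes compared, of which those the results turn on are given with values, and genes of the lists only at 20 CPM or more. The 3 most alike genes were taken by correlation. Alternatives in cell filters, clustering, naming, scaling and pseudocount are given in the closing section. One overlap of a member with another gene is not reported here.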

Additional observations from a re-analysis of the deposited data

Results flagged for a closer look

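Adamts5 ran in opposite directions in 2 cell classes. Its log2 ratio, injured over uninjured, was 1.02 in lymphatic endothelial cells and -1.79 in pericytes or smooth muscle cells. Between single clusters it was 1.31 in the Gsn and Clec3b mesenchymal cluster and -1.65 in the Rgs5 cluster. Timp2 had a log2 ratio of 1.95 in the cycling endothelial cluster led by Ctla2a and Hist1h2ap and -1.06 in the endothelial cluster led by Plvap and Ctla2a. With 1 library per group these differences between cell types were not tested.

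One cluster that was left unnamed, and so enters no class, had Timp1 at 665 CPM in its 181 injured cells and 11.7 CPM in its 103 uninjured cells. Its leading genes were Cfd, Car3, Hp and Adipoq, which are known from fat cells, and its cells were shallow, with a median of 1904 UMIs. The part of free RNA in this value was not tested. Another unnamed cluster, led by Rgs5, Fabp4 and Cd36 and so with pericyte and endothelial markers together, had 123 injured and 241 uninjured cells. It had 133 CPM of Timp4 in injured and 720 CPM in uninjured cells (848 and 5324 UMIs), and 691 and 1864 CPM of Timp3.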

How the results depend on the processing

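Of 39 log2 ratios called among 90 (10 genes in 8 classes and over all cells), 39 kept their direction in the alternatives run and 22 were also called in each of them. Of 138 settings of the counts of called members, 36 changed the count and 14 changed it by more than 1.5 times or to 0. In mesenchymal cells the count of 1 higher gene became 0 with doublets kept, with a mitochondrial limit of 20%, with cells of 5000 or more UMIs, with the members used for clustering, with each library clustered alone, with cells named cell by cell, and with only Xist or only Y-linked cells, since Timp1 lies at the threshold there; its call held in 6 of 15 alternatives. The count of 1 lower gene became 2 with the members used for clustering (Timp4 and Adamts5), 3 with only Y-linked cells (also Adamts9) and 0 within the Gsn and Clec3b cluster. In phagocytes the 3 lower genes became 5 with only Y-linked cells and 2 with only Xist cells, and the call of Adamts1 held in 8 of 13 alternatives (log2 -1.91 to -0.44). In vascular cells the 2 higher became 1 with cells named cell by cell, and in mural cells the 2 higher became 4 with each library clustered alone. Adamts5 in mesenchymal cells had a log2 ratio of -0.95 in the main analysis, -1.45 without the tenocyte-like cluster and 1.31 within the Gsn and Clec3b cluster, and in mural cells it had -1.79, and -0.54 with each library clustered alone. Alternatives that leave out or keep single clusters or top cells were chosen after seeing the data. Settings that left under 50 cells in a library were not run (lymphatic cells split by sex-linked RNA, and some settings of the Schwann, dendritic and perineurial classes). No paired analysis was possible because each group has 1 library.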

Other observations

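Timp1 lies on the X chromosome, and its level differed between cells split by sex-linked RNA within a library. In injured mesenchymal cells it had 1489 CPM in Y-linked cells and 606 CPM in Xist cells, a ratio of 2.46 (2.419 to 2.491). In uninjured mesenchymal cells the values were 821 and 332 CPM, a ratio of 2.47 (2.388 to 2.561). The ratio was also above 1 within single mesenchymal clusters. It was 2.19 in the injured Tnc and C1qtnf3 cluster (1678 and 766 CPM), 1.46 in the injured Col14a1 and Eln cluster, 2.11 in the injured cycling cluster and 1.92 in the uninjured tenocyte-like cluster (1900 and 988 CPM). In injured phagocytes it was 2.07 and in injured vascular endothelial cells 1.46, while in uninjured vascular endothelial cells, where Timp1 was near 0, it was 0.372. Other members also differed in the injured Tnc and C1qtnf3 cluster, where the ratio was 2.61 for Adamts1, 1.88 for Adamts5, 1.56 for Adamts4 and 0.745 for Timp2. The number of animals in each library is not known, so sex and animal cannot be told apart.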
